A study of Homo sapiens with 36 samples.

Results

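The footprint-to-RNA ratio describes how many ribosome footprints a gene gave in WiT49 cells for the amount of its RNA, in cells that received only the vehicle dimethyl sulfoxide (DMSO). WiT49 is an established cell line from an anaplastic Wilms tumor, a childhood kidney cancer. The genes are all those that GENCODE release 29 calls protein-coding and that the RNA and footprint tables both list, which makes 19718 genes of 58219 identifiers in the RNA tables and 43582 in the footprint tables. The study treated the cells with actinomycin D at 2 nM or with DMSO, 3 replicates each, and sequenced total RNA and ribosome footprints. Of its 36 libraries, the 12 DMSO libraries of 6 h and 72 h are used: 3 of RNA and 3 of footprints at each time, and no drug contrast is made. The labels do not say that the replicates were separate cultures, so p-values measure the spread between these libraries, which may be technical.

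A ribosome shields a short piece of the mRNA it is reading from nuclease, and sequencing those pieces counts ribosomes on each mRNA. Dividing the footprint level by the RNA level gives an estimate of translational efficiency, the ribosome load per mRNA. Ribosomal protein and elongation factor mRNAs are known for a terminal oligopyrimidine tract (5′ TOP), a run of C and U that begins at the first transcribed base and through which mTOR signalling controls their translation. Ferritin mRNAs are held back by an iron-responsive element, and mitochondrial mRNAs are read by a separate set of ribosomes inside the organelle.

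The tract is shown first because the classes known to carry it stood at the low end of the ratios. Each line gives 15 bases before and 15 bases from the RefSeq start base (build GRCh38.p14), 5′ to 3′ on the strand of the gene, with an unbroken run of C and T that begins with C at the start base in capitals. The first 6 genes had low ratios, of which RPL10 has no such run, and the last 4 had ratios above 0.
RPL13A (chr19:49487593-49487622, plus strand): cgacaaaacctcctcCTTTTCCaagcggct
RPS12 (chr6:132814554-132814583, plus strand): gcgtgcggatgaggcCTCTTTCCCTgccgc
RPSA (chr3:39406705-39406734, plus strand): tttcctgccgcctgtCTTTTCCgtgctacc
EEF1A1 (chr6:73521018-73521047, minus strand): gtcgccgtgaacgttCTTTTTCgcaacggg
NACA (chr12:56725285-56725314, minus strand): acgctctcgctcggtCTTTCTgccgccatc
RPL10 (chrX:154398050-154398079, plus strand): tttttccactctcagaaatatacgtctgtc
RPL3 (chr22:39319609-39319638, minus strand): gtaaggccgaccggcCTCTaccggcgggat
FAU (chr11:65122120-65122149, minus strand): cgccctcgcttcttcCTCTTTCTCgactcc
RACK1 (chr5:181243892-181243921, minus strand): ggggggcttttctctCTCTCTTTCactgca
EEF2 (chr19:3985449-3985478, minus strand): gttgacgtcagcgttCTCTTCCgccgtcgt

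A run of at least 5 such letters at the start base was found in 43 of 63 ribosomal protein genes with a RefSeq start (68.3%) and in 10 of 12 other genes listed as 5′ TOP mRNAs (83.3%). It was found in 4.67% of the 14852 protein-coding genes matched and in 4.04% of all 27305 starts of the table. Outside both lists, genes with the run did not stand apart: their median log2 ratio was −0.02 over 190 genes at 6 h, against −0.01 over 2911 genes without it, and −0.22 over 175 genes at 72 h, against −0.02 over 2779. Among ribosomal proteins the medians were −2.05 with the run and −1.89 without it at 6 h, and −2.67 and −2.74 at 72 h. These medians leave out genes whose footprints are listed at 0. A run of letters is a description of the annotated start, and the start used in these cells was not measured.

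The footprint libraries were shallow and mixed, and this sets what can be seen. They held 152556 to 697435 counts in all, of which 5.12% to 38.4% fell on protein-coding genes, against 40221994 to 69240041 counts in RNA, of which 63.2% to 76.1% were protein-coding. Protein-coding footprint counts were 94447, 58751 and 23908 at 6 h and 121227, 82661 and 26831 at 72 h in replicates 1, 2 and 3, so a count of 0, which allows up to 3 counts, stands for as much as 31.8, 51.1 and 125 CPM (counts scaled to an equal protein-coding total in every library) at 6 h and 24.7, 36.3 and 112 CPM at 72 h. Such floors cover counting error only. microRNA genes took 4.67%, 45.1% and 60.8% of the 6 h footprint counts and at most 5.89% at 72 h. Between replicates, Pearson's r of log2(CPM + 1) across genes was 0.315 to 0.643 for footprints and 0.952 to 0.989 for RNA, over genes with 10 or more counts in a pair of libraries. Markers of each list were mixed. Of the epithelial list, KRT8 and KRT18 were abundant, but in RNA EPCAM reached at most 32.9 CPM, CDH1 5.63 CPM and CLDN4 1.25 CPM. Of the stromal list, VIM, COL1A1 and COL3A1 were abundant, but THY1 reached at most 0.312 CPM in RNA. IGF2, of the nephron progenitor and Wilms tumor list, was abundant. The blood gene HBB was at 0 in all 12 libraries, and the highest blood marker in RNA, CD68, reached 1.96 CPM. Several defining genes of nephron progenitors were near 0, with SIX2 at most 0.722 CPM and PAX2 at most 0.90 CPM in RNA, and COL1A2 was listed at 0 in RNA.

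The ratio differed widely between genes. A gene was tested when its CPM, averaged over both assays with equal weight, reached 50, which left 4218 genes at 6 h and 4189 at 72 h. With edgeR's quasi-likelihood test at an adjusted p under 0.05, footprints were higher than RNA for 938 genes at 6 h (22.2% of those tested) and lower for 1181 (28%). At 72 h they were higher for 923 genes (22%) and lower for 1411 (33.7%). The filter let in 449 genes at 6 h and 544 at 72 h through footprints alone, with RNA under 50 CPM. Such genes were tested because their footprints were high, and they raise the share of higher calls. With RNA of at least 50 CPM, 18.1% of genes were higher and 31.3% lower at 6 h, and 15% and 38.7% at 72 h. The median log2 ratio of all tested genes was −0.17 at 6 h and −0.29 at 72 h, and the middle 50% of genes ran from −1.59 to 0.90 and from −2.06 to 0.95. CPM carries no length, so levels are compared here within a gene only, and a ratio of 0 means an equal share of both libraries, not a rate. TMM scaling moved the median to −0.46 and −0.47 and the higher calls at 6 h from 44.3% to 33.6% of all calls, so classes are read against the median of all genes.

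The same genes ranked high or low at both times. Of 3609 genes tested at both, 556 were higher at both (15.4%), 816 were lower at both (22.6%), and 10 were called in opposite directions. Among the 3227 with a footprint count at both times, Spearman's rho of the ratios was 0.79 across genes, which are not independent replicates. The 2 times come from different libraries and share neither RNA nor footprint samples.

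**Figure D1:**
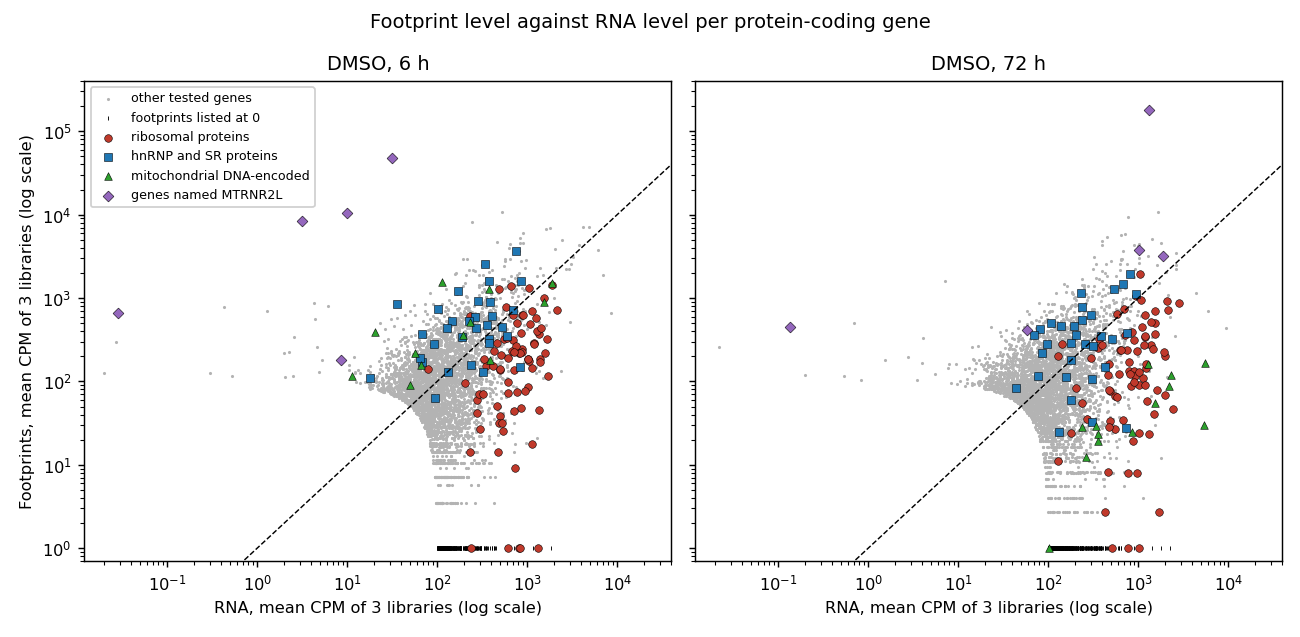
Mean footprint CPM against mean RNA CPM of 3 libraries for each tested protein-coding gene at 6 h and 72 h, both axes on a log scale, with equal levels on the dashed line. Ribosomal proteins lie mostly below the line, genes named MTRNR2L far above it, and genes with footprints listed at 0 are drawn at the bottom. Genes with RNA listed at 0 (5 at 6 h and 4 at 72 h) are not drawn.

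Ribosomal proteins, the protein parts of the ribosome, stood low as a class. Of 79 members, all of which passed the filter with an RNA level of at least 50 CPM, 64 were called lower at 6 h and 63 at 72 h, and 58 at both. Among all genes with that RNA level, 31.3% were lower at 6 h and 38.7% at 72 h. Footprints of 5 members at 6 h and 3 at 72 h were listed at 0. Leaving those out, 38 of 45 proteins of the large subunit were lower at 6 h and 37 of 45 at 72 h, with medians of −1.97 and −2.41, and 21 of 29 and 23 of 31 proteins of the small subunit, with medians of −1.94 and −2.44. Among all genes with a footprint count, 23.2% and 26.2% were lower and the medians were −0.04 and −0.02. Proteins of the large subunit took 4.03%, 3.89% and 3.64% of protein-coding counts in RNA at 6 h and 1.17%, 1.54% and 1.31% in footprints, 2.88-fold less on average. At 72 h they took 3.69%, 3.47% and 6.24% in RNA and 1.18%, 1.65% and 0.645% in footprints, 3.86-fold less. The assays did not overlap at either time, although RNA and footprint replicate 3 of 72 h lay apart from the other replicates in opposite directions.

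Within the ribosomal proteins the ratios spread over several log2 units. RPS12, a protein of the small subunit, had 992, 982 and 869 CPM in RNA and 63.5, 85.1 and 83.7 CPM in footprints at 6 h. Its log2 ratio was −3.67 ± 0.30 (adjusted p = 0.00011). Here and below, the value after ± is the size of the log2 ratio divided by the square root of the test's F. It is not a standard error of the ratio, and with few footprint counts it can be smaller than their counting error. The 72 h ratio of RPS12 was −4.36 ± 0.55 (adjusted p = 0.000569), from 1195, 1099 and 2512 CPM in RNA and 74.2, 84.7 and 74.5 CPM in footprints. RPL13A, of the large subunit, had log2 ratios of −2.80 ± 0.25 and −2.67 ± 0.50, RPS2 had −3.94 ± 0.33 and −2.99 ± 0.44, RPL10 had −3.09 ± 0.31 and −3.43 ± 0.61, and RPSA had −2.69 ± 0.36 and −3.11 ± 0.49. In these 4 genes every footprint library lay below every RNA library at both times. RPL3, of the large subunit, was the highest member by the mean of both times among its subunit and passed the test at neither time, with 1366, 1021 and 1589 CPM in footprints against 1088, 1002 and 1022 CPM in RNA at 6 h. FAU, which encodes the small-subunit protein eS30 fused to a ubiquitin-like protein, was called higher at both times, with log2 ratios of 1.45 ± 0.34 and 1.09 ± 0.38. The 72 h call on FAU was lost without RNA replicate 1 (1.04) or 2 (1.05) or footprint replicate 1 (0.82) or 2 (1.01). Across the 73 members with counts at both times, rho between the times was 0.80.

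Ribosomal protein genes have many processed pseudogenes, and short reads from near-identical copies can be split or lost, so their absolute ratios are uncertain. The annotation lists 14980 pseudogenes, of which 14848 have an identifier in the RNA tables and 568 in the footprint tables. The 14280 found only in the RNA tables took 1.22% to 1.30% of all RNA counts at 6 h and 2.22% to 3.26% at 72 h, and those named after ribosomal proteins took 0.281% to 0.311% and 0.572% to 0.951%. Ribosomal protein genes with more than 9 named pseudogenes had a median log2 ratio of −2.28 at 6 h over 36 genes, against −1.69 over 38 genes with up to 9, and −2.97 against −1.63 at 72 h (38 genes each). The part of pseudogenes in the class median was not tested.

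Elongation factors, which carry tRNAs to the ribosome and move it along, were split. EEF1A1, the most abundant of them in RNA, had 9794, 7883 and 7929 CPM in RNA and 169, 749 and 1088 CPM in footprints at 6 h, a log2 ratio of −3.80 ± 0.56 (adjusted p = 0.00101). At 72 h the ratio was −4.40 ± 0.75 (adjusted p = 0.00127). EEF1G, a subunit of the factor that reloads it, was listed at 0 in all 6 footprint libraries, with 466 to 2107 CPM in RNA. EEF2, the translocase, was higher at 6 h with a log2 ratio of 1.05 ± 0.21 (adjusted p = 0.00334) and missed the threshold at 72 h (0.40 ± 0.45, adjusted p = 0.469). With TMM scaling the call on EEF2 at 6 h was lost. Of the 6 factors, 4 were lower at each time, of which 2 at 6 h and 1 at 72 h were listed at 0. Their medians were −3.52 and −3.55, and −1.52 and −3.44 without the listed zeros. Among all tested genes 28% and 33.7% were lower and the medians were −0.17 and −0.29.

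Other mRNAs known for a 5′ TOP, a list of 17 that includes several elongation factors, were lower for 11 genes at 6 h and 12 at 72 h, of which 3 at each time were listed at 0. All 17 had RNA of at least 50 CPM, a level at which 31.3% of tested genes were lower at 6 h and 38.7% at 72 h. The median over the 14 with a count was −1.54 and −1.96. NACA, a subunit of the complex that meets nascent chains at the ribosome, had log2 ratios of −2.47 ± 0.34 and −3.06 ± 0.47. HNRNPA1, an RNA-binding splicing regulator, had −2.84 ± 0.44 and −4.83 ± 0.51, with 74.1, 85.1 and 293 CPM in footprints against 723, 932 and 844 CPM in RNA at 6 h. RACK1, a scaffold on the small ribosomal subunit, was higher at 6 h (1.28 ± 0.24, adjusted p = 0.00259) and was not called at 72 h (0.65 ± 0.55, adjusted p = 0.328).

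Initiation factors, which bring the small subunit to the start codon, held members at both ends. Of 31 tested at each time, 8 were higher and 12 lower at 6 h, and 6 were higher and 18 lower at 72 h, with 2 and 6 of the lower ones listed at 0. Among all tested genes 22.2% were higher and 28% lower at 6 h and 22% and 33.7% at 72 h, and the medians of the list were −0.71 and −1.33. As a share of protein-coding counts the class stood slightly higher in footprints at 6 h, at 1.37%, 1.30% and 1.11% against 1.10%, 1.11% and 1.04% in RNA, where the ranges just did not overlap. At 72 h the assays overlapped. EIF3C had 1451, 1294 and 1380 CPM in footprints against 163, 201 and 213 CPM in RNA at 6 h, with log2 ratios of 2.84 ± 0.23 and 2.69 ± 0.41, but it has a near-identical copy, EIF3CL, between which reads may be divided. EIF3E, another subunit of the same complex, was listed at 0 in all 6 footprint libraries.

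Ferritin mRNAs are the textbook case of translation held back by an iron-responsive element, but their footprint values here are uncertain. FTL, the ferritin light chain, had 1919, 1821 and 1783 CPM in RNA at 6 h and 1127, 859 and 3339 CPM at 72 h. It was listed at 0 in every footprint library, a value that may be a failed estimate, which was not tested. FTL has 16 named pseudogenes and FTH1 has 25, and their part in these values was not tested. FTH1, the heavy chain, had 21.2, 0 and 0 CPM in footprints at 6 h against 294, 476 and 394 CPM in RNA, and 0, 24.2 and 112 CPM against 248, 273 and 242 CPM at 72 h (log2 ratios −5.12 ± 0.64 and −3.43 ± 0.76). TFRC, the transferrin receptor, whose elements lie in the 3′ UTR and act on mRNA stability, was called at neither time (−0.46 ± 0.33 and −0.27 ± 0.40).

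A footprint value of 0 needs care in these tables. If footprints followed RNA, 2141 genes at 6 h and 2918 at 72 h would have had 20 or more footprint counts over 3 libraries, and 211 (9.86%) and 520 (17.8%) of them were listed at 0. Only 50 and 138 had more than 0 but under 0.05 of that number, so the zeros formed a group apart from the low counts. Even among genes for which 100 or more counts would have been seen, 10 of 193 at 6 h and 26 of 295 at 72 h were listed at 0. The group held genes that every dividing cell uses: the chaperonin subunit CCT5, the DNA repair protein XRCC5 and the lipid synthesis enzyme ACLY had no count in any of the 6 footprint libraries, with 484 to 626, 654 to 759 and 510 to 607 CPM in RNA at 6 h. These zeros may be failed estimates, which was not tested. Such genes are called listed at 0 here, without a fold change. They made up 263 of the 1181 lower calls at 6 h and 424 of the 1411 at 72 h.

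Of 1919 genes for which 20 or more counts would have been seen at both times, 121 were listed at 0 at both, 67 at 6 h only, 129 at 72 h only and 1602 had a count at both. The 121 genes had a median coding length of 858 bases, against 1542 bases for the 1602. A named pseudogene was annotated for 54 of the 121 (44.6%) and for 424 of the 1602 (26.5%), and a small RNA gene overlapped 3.31% and 23.3%. By the rule for named genes, the 10 lowest ratios all belonged to this group: FTL, RPL11, RPS10, XRCC5, CCT5, EIF3E, GLO1, SUMO2, ACLY and PRDX6. In 10 genes chosen after the values were seen, the lowest called at both times with a count in all 12 libraries, 5 were ribosomal proteins, joined by EEF1A1, NACA, the prolyl isomerase PPIA, the histone chaperone SET and the mitochondrial gene MT-ND4. PPIA had 84.7, 153 and 167 CPM in footprints at 6 h against 2639, 2482 and 2083 CPM in RNA (log2 ratio −4.27 ± 0.33).

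**Figure D2:**
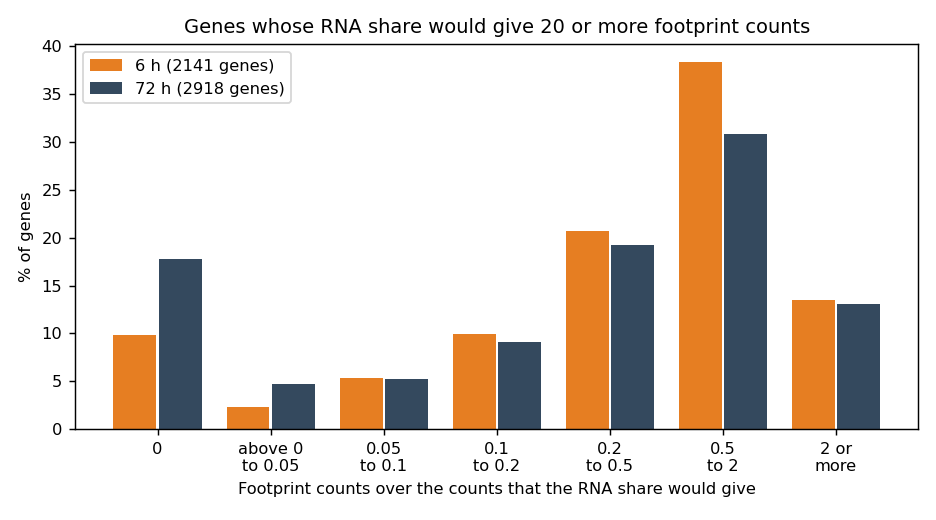
Percent of genes (vertical axis) by the ratio of observed footprint counts to those an equal share with RNA would give (horizontal axis), for genes where that number is 20 or more, at 6 h and 72 h. The bar at 0 holds 9.86% and 17.8% of genes and is taller than its neighbour, which holds 50 of 2141 and 138 of 2918 genes.

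Some classes held many listed zeros. The shares over all tested genes were 22.2% higher and 28% lower at 6 h, and 22% and 33.7% at 72 h. Nuclear-encoded subunits of the respiratory chain, the complexes of oxidative phosphorylation in mitochondria, had a median log2 ratio of −1.45 over 50 genes at 6 h and −1.73 over 56 at 72 h, with 24 and 30 called lower. Of these members 16 and 19 were listed at 0, and among those with a count the median was −0.09 and 0.07. ATP5PB, a stator subunit of ATP synthase, was listed at 0 in all 6 footprint libraries, whereas NDUFS3, a subunit of complex I, was higher at both times (1.87 ± 0.33 and 2.37 ± 0.31). Proteasome subunits, which build the particle that degrades ubiquitin-marked proteins, had 12 of 32 members lower and 6 higher at 6 h and 15 of 33 lower and 4 higher at 72 h. All of these had RNA of at least 50 CPM. At that level 31.3% of tested genes were lower and 18.1% higher at 6 h, and 38.7% and 15% at 72 h, so the proteasome lay near all genes. With 3 and 7 listed at 0 left out, the median of the proteasome subunits was −0.44 and −0.13. PSMC5, an ATPase of the regulatory particle, was higher at both times (2.69 ± 0.24 and 2.78 ± 0.53) and PSMB3 was listed at 0. Mitochondrial ribosomal proteins had 4 members higher and 4 lower of 34 tested at 6 h, and all 4 lower ones were listed at 0. At 72 h 7 were higher and 11 lower of 35, 9 of them listed at 0. Of those tested, 3 at 6 h and 8 at 72 h passed the filter through footprints alone. With RNA of at least 50 CPM, 3 of 31 were higher at 6 h and 1 of 27 at 72 h. The share of counts of the mitochondrial ribosomal proteins was still lower in footprints in every library, with 0.415%, 0.349% and 0.301% against 0.582%, 0.555% and 0.479% in RNA at 6 h.

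Genes of RNA splicing and chromatin had medians above that of all genes. The hnRNP and SR proteins, which bind pre-mRNA and guide splicing, had 19 of 32 tested members higher and 1 lower at 6 h and 9 higher and 6 lower at 72 h, with medians of 1.16 and 0.83. Of those tested, 2 at 6 h and 1 at 72 h passed the filter through footprints alone. With RNA of at least 50 CPM, 17 of 30 were higher at 6 h and 9 of 31 at 72 h. Over all tested genes with that level it was 18.1% and 15%. Among all tested genes 22.2% were higher and 28% lower at 6 h and 22% and 33.7% at 72 h, with medians of −0.17 and −0.29, so the share of higher calls at 72 h was near that of all genes. They took 1.98%, 2.27% and 2.34% of protein-coding counts in footprints at 6 h against 0.936%, 1.03% and 1.02% in RNA, 2.21-fold more on average. At 72 h the assays overlapped, since footprint replicate 3, at 0.764%, lay at the level of RNA. HNRNPH2 had 656, 732 and 1129 CPM in footprints at 6 h, but its RNA was 103, 2.00 and 2.19 CPM, so RNA replicate 1 stood apart from the others (4.47 ± 1.55), and its close relative HNRNPH1 (2.90 ± 0.24) may share its reads. The HNRNPH2 call was lost without RNA replicate 3 (3.94) or any 1 footprint library of 6 h (4.27 to 4.64). Chromatin remodellers, ATP-driven machines that move nucleosomes, had 14 of 27 members higher and 5 lower at 6 h and 10 of 26 higher and 3 lower at 72 h, with medians of 0.93 and 0.63. Of these, 1 at each time passed the filter through footprints alone. With RNA of at least 50 CPM, 13 of 26 remodellers were higher at 6 h and 9 of 25 at 72 h. CHD4, the ATPase of the NuRD complex, had 2583, 2604 and 3723 CPM in footprints against 585, 665 and 676 CPM in RNA at 6 h (2.20 ± 0.24). Its 72 h ratio was 2.07 ± 0.62, and that call was lost without RNA replicate 1 (1.86), RNA replicate 3 (1.75) or footprint replicate 2 (1.55) of 72 h. The remodeller subunit SMARCD1 was lower at both times, with footprints listed at 0 at 72 h.

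Ribosome biogenesis factors, which build ribosomes in the nucleolus, had more members higher than lower at both times. Of 36 tested at 6 h, 13 were higher and 8 lower, and of 30 at 72 h, 14 were higher and 5 lower, against 22.2% higher and 28% lower of all tested genes at 6 h and 22% and 33.7% at 72 h. Of those tested, 1 at each time passed the filter through footprints alone. With RNA of at least 50 CPM, 12 of 35 were higher at 6 h and 13 of 29 at 72 h. The share of lower calls at 6 h was near that of all genes, and the medians of the list were 0.19 and 0.85. Their share was 2.28%, 1.97% and 1.80% in footprints against 1.01%, 1.07% and 0.929% in RNA at 6 h and 1.78%, 2.20% and 1.16% against 1.06%, 1.14% and 0.898% at 72 h. At both times NCL, nucleolin, was about as large as the whole difference in share or larger, so the higher share rests on this gene. NCL had 13616, 9736 and 8784 CPM in footprints at 6 h against 423, 611 and 546 CPM in RNA (4.35 ± 0.28), and a log2 ratio of 3.60 at 72 h. The introns of NCL hold small nucleolar RNA genes, and the part of such small RNAs in its counts was not tested. The lowest member, UTP20, had 0, 68.1 and 0 CPM in footprints at 6 h and was listed at 0 at 72 h.

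Chaperones and proteins of the secretory pathway were led by a few abundant genes. HSP90AA1, a cytosolic chaperone of the heat shock family, had 5897, 5294 and 7111 CPM in footprints at 6 h against 672, 943 and 1089 CPM in RNA (2.76 ± 0.26), and 2.10 ± 0.62 at 72 h, a call of HSP90AA1 that was lost without RNA replicate 1 (2.17) or footprint replicate 2 (1.61). Of the cytosolic chaperones, 8 of 24 were higher and 3 lower at 6 h and 6 of 23 higher and 3 lower at 72 h, with medians of 0.18 and 0.22. Among all tested genes 22.2% were higher and 28% lower at 6 h, and 22% and 33.7% at 72 h. The 72 h share of higher chaperones was near that of all genes. HSPA5, the chaperone BiP of the endoplasmic reticulum (ER), had 3420, 2485 and 3012 CPM in footprints against 210, 181 and 255 CPM in RNA at 6 h (3.79 ± 0.26) and 3.59 ± 0.44 at 72 h. Genes of ER translocation and folding as a list did not follow HSPA5: 6 were higher and 16 lower of 32 at 6 h, 7 of the lower ones listed at 0, and 7 were higher and 13 lower of 31 at 72 h, 5 of them listed at 0. The medians were −0.88 and −0.75, against −0.17 and −0.29 for all tested genes. Without the listed zeros they were −0.55 over 25 genes at 6 h and 0.01 over 26 at 72 h. All genes with a footprint count had −0.04 and −0.02. SSR3, a subunit of the translocon-associated complex, was listed at 0. The share of the list was nonetheless higher in every footprint library than in any RNA library at both times. At 6 h its sum and its median thus differ in sign. At 72 h they do so only with the listed zeros included.

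Collagens and laminins, secreted proteins of the extracellular matrix, were divided at 6 h, with 4 of 15 tested members higher and 6 lower and a median of −0.34. At 72 h 9 of 18 were higher and 2 lower with a median of 1.09, 3 of the 18 having passed the filter through footprints alone. With RNA of at least 50 CPM, 6 of 15 were higher and 2 lower at 72 h, and all 15 of 6 h had that level. Over all tested genes with that level, 18.1% were higher and 31.3% lower at 6 h, and 15% and 38.7% at 72 h. As a share of protein-coding counts, the list had 1.31%, 1.10% and 0.954% in footprints against 0.668%, 0.665% and 0.788% in RNA at 6 h, and 2.40%, 1.95% and 3.32% against 0.604%, 0.824% and 0.855% at 72 h. COL3A1, a fibrillar collagen, had 6649, 7166 and 6483 CPM in footprints at 6 h and 11227, 9122 and 12038 CPM at 72 h, against 1281 to 2069 CPM in RNA over both times (2.06 ± 0.24 and 2.70 ± 0.40). At 6 h COL3A1 alone was, on average, at least as large as the difference in share, so the higher 6 h share of the list rests on COL3A1. COL1A1, another fibrillar collagen, was also higher at both times (1.00 ± 0.32 and 2.45 ± 0.39). COL4A1, a basement membrane collagen, had 0, 17.0 and 0 CPM in footprints at 6 h and 8.25, 0 and 0 CPM at 72 h, against 211 to 313 CPM in RNA.

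Histones of the replication-dependent clusters, whose mRNAs end in a stem-loop and carry no poly(A) tail, had 25 of 59 tested members higher and 3 lower at 6 h and 11 of 59 higher at 72 h. Their medians were 0.78 and 1.18. Among all tested genes with an RNA level of at least 50 CPM, 18.1% were higher at 6 h and 15% at 72 h. Of the histones with that level, 23 of 56 and 7 of 51 were higher. The share of the class overlapped between the assays at both times, since replicate 3 was low in both: at 72 h it was 2.69%, 3.03% and 0.917% in footprints and 1.47%, 1.65% and 0.594% in RNA. Histone genes of a cluster are nearly identical, so single members such as HIST2H3PS2 and HIST2H2BF, the ends of the list, are uncertain.

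Immediate-early genes, which growth signals induce within minutes, had 4 of 14 tested members higher at 6 h and 3 of 7 at 72 h, with medians of 0.62 and 1.45. Of those tested, 1 and 3 passed the filter through footprints alone. With RNA of at least 50 CPM, 4 of 13 and 1 of 4 were higher, where all tested genes with that level had 18.1% and 15%. The shares over all tested genes were 22.2% higher and 28% lower at 6 h, and 22% and 33.7% at 72 h. CYR61, a secreted matricellular protein, had 879, 919 and 920 CPM in footprints at 6 h against 205, 160 and 216 CPM in RNA (2.22 ± 0.22). Zinc finger genes named ZNF had 20 of 83 higher and 7 lower at 6 h and 12 of 68 higher and 13 lower at 72 h, with medians of 0.62 and 0.11, but 26 and 14 of those tested passed the filter through footprints alone. With RNA of at least 50 CPM, 9 of 57 and 5 of 54 were higher, against 18.1% and 15% of all tested genes with that level. Higher calls on ZNF genes were thus near or below the share of all genes. Of the stress genes with upstream open reading frames, ATF4, whose coding region is read only poorly in unstressed cells, was lower at both times (−2.54 ± 0.48 and −2.25 ± 0.51), with 21.2, 51.1 and 0 CPM in footprints against 181, 159 and 153 CPM in RNA at 6 h. PPP1R15B, a phosphatase subunit of the same stress pathway, was higher at 6 h (0.84 ± 0.22, adjusted p = 0.0119) and not called at 72 h (0.62 ± 0.33, adjusted p = 0.135). The 6 h call on PPP1R15B was lost without RNA replicate 2 (0.82). Of the nephron progenitor and Wilms tumor markers, 3 of 5 tested at 6 h and 3 of 4 at 72 h were lower and 1 was higher at each time. The RNA-binding protein LIN28B (−3.16 ± 0.44 and −3.60 ± 0.56) and the growth factor IGF2 (−0.99 ± 0.26 and −2.84 ± 0.52) were lower at both times. The adhesion molecule NCAM1 was higher at both (2.07 and 3.38), but it passed the filter through footprints alone. Its RNA reached at most 22.9 CPM at 6 h and 27.2 CPM at 72 h. Of the markers with RNA of at least 50 CPM, 0 of 4 at 6 h and 0 of 3 at 72 h were higher.

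Other lists lay near the median of all genes or changed place with the way they were summed. Against the shares of all genes (22.2% higher and 28% lower at 6 h, 22% and 33.7% at 72 h), mitosis genes had 7 of 32 higher and 9 lower at 6 h and 3 of 30 higher and 8 lower at 72 h, with medians of −0.31 and −0.34 and with NCAPD2, a condensin subunit, higher at both times (2.28 ± 0.22 and 2.39 ± 0.56). DNA replication genes had 6 higher and 6 lower of 27 and 3 higher and 9 lower of 24, with medians of −0.31 and −0.54, led by MCM7, a subunit of the replicative helicase (1.64 ± 0.23 and 2.85 ± 0.72), while MCM3 of the same helicase was listed at 0. Glycolysis had 3 higher and 3 lower of 13 and 4 and 4 of 13, with medians of −0.21 and 0.07. Its LDHB, a lactate dehydrogenase subunit, had 0, 1413 and 0 CPM in footprints at 6 h and was listed at 0 at 72 h, against 1467 to 2549 CPM in RNA. tRNA synthetases, cholesterol synthesis, actin and tubulin, and selenoproteins had between 1 and 5 members higher and between 2 and 8 lower at either time.

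**Figure D3:**
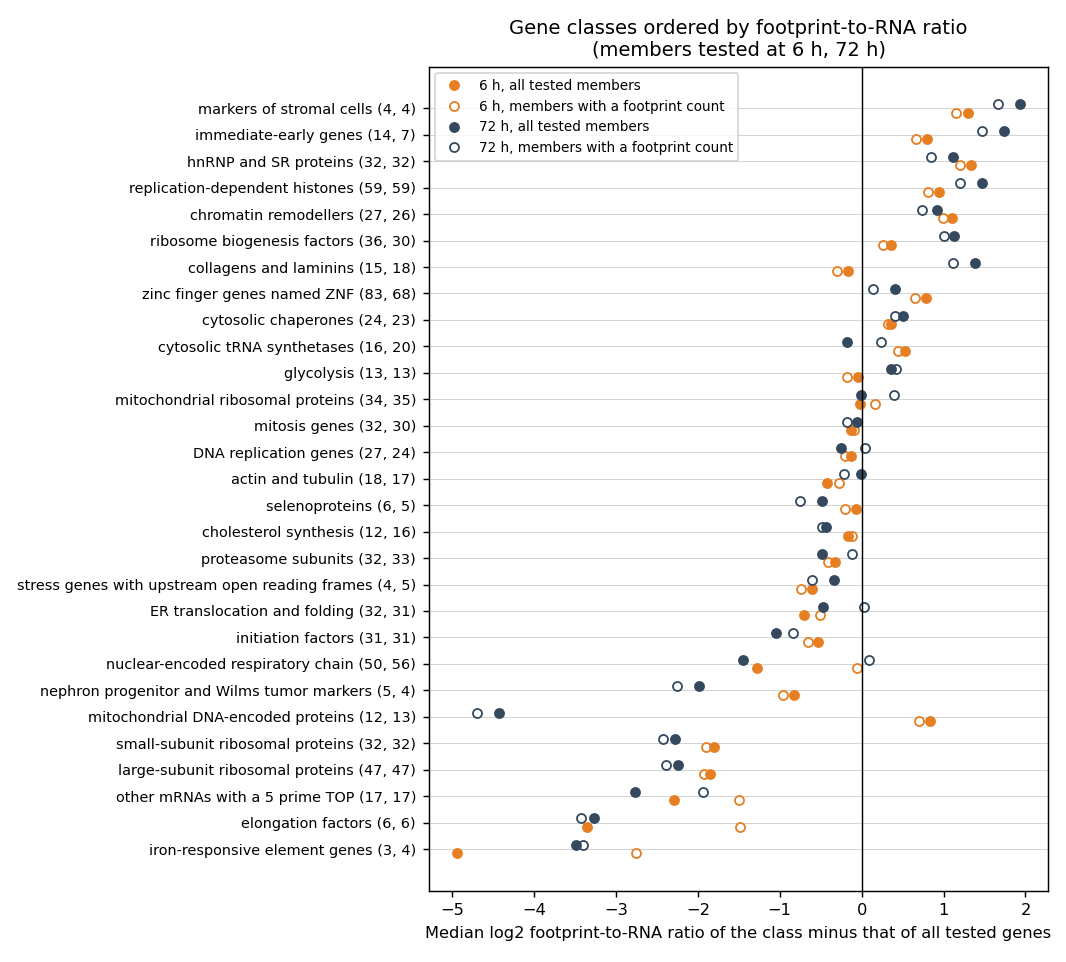
Median log2 footprint-to-RNA ratio of each gene class minus the median of all tested genes (horizontal axis), at 6 h and 72 h, for all tested members (filled) and for members with a footprint count (open). The iron-responsive element list and classes with a 5′ TOP lie at the low end at both times. Markers of stromal cells, immediate-early genes, replication-dependent histones, splicing genes and chromatin genes lie at the high end. The mitochondrial DNA-encoded genes lie far apart between the times.

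The highest ratios of all belonged to genes whose counts may come from another locus. Of the 10 highest by the rule, 4 were MTRNR2L genes, short nuclear copies of the mitochondrial 16S ribosomal RNA sequence. MTRNR2L12 had 32939, 38740 and 71901 CPM in footprints at 6 h against 33.6, 30.9 and 30.7 CPM in RNA, and 109571, 74812 and 349894 CPM against 1658, 1079 and 1168 CPM at 72 h. All 11 genes of that name together took 4.77%, 5.70% and 10.1% of protein-coding footprint counts at 6 h and 11.7%, 8.05% and 36.3% at 72 h, against at most 0.00577% and 0.482% in RNA. Mitochondrial ribosomal RNA genes took 0.933% to 2.29% of all footprint counts at 6 h and 4.80% to 10.6% at 72 h, and their part in the MTRNR2L counts was not tested. Leaving the MTRNR2L genes out of the totals moved the median of all genes to −0.09 at 6 h and −0.06 at 72 h. MTRNR2L11, MTRNR2L7, AC092143.1 and AL136295.1 were listed at 0 in all 6 RNA libraries.

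The others among the 10 overlapped another gene on the same strand. AMY2B, a pancreatic amylase gene, had 476, 460 and 1380 CPM in footprints at 6 h against 0.36, 0.371 and 0.569 CPM in RNA, and its span holds the actin pseudogene ACTG1P4. EDARADD, an adaptor of ectodysplasin signalling, had 731, 885 and 1004 CPM against 4.42, 4.19 and 4.31 CPM, and its span holds the enolase pseudogene ENO1P1. AL590132.1 holds IPO8P1, CORO7-PAM16 overlaps CORO7 and PAM16, AC092143.1 overlaps MC1R and TUBB3, and AL136295.1 overlaps TM9SF1 and CHMP4A. The 3 pseudogenes have no row in the footprint tables. Over all tested genes, an annotated pseudogene on the same strand went with 25.2% higher calls at 6 h against 22% without one, and 17.3% against 22.4% at 72 h.

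Retrocopies stood higher than their parent genes in 5 genes among the highest called at both times with counts in all libraries, pairs chosen after the values were seen. SETSIP, a copy of SET, had 212, 238 and 209 CPM in footprints at 6 h against 1.00, 2.97 and 1.97 CPM in RNA, whereas SET had 138, 102 and 209 CPM against 1319, 1336 and 1114 CPM. With both summed, the log2 ratio of the means was −1.77 at 6 h and −2.58 at 72 h, in place of −3.07 and −4.37 for SET alone. GLUD2, a copy of the glutamate dehydrogenase GLUD1, had 254, 340 and 418 CPM in footprints at 6 h while GLUD1 was listed at 0 in every footprint library with 216 to 262 CPM in RNA. Summed, the pair had a log2 ratio of 0.48 at 6 h and 0.12 at 72 h. KIF4B with KIF4A, TAF1L with TAF1 and PABPC3 with PABPC1 gave log2 ratios of 1.51, 2.26 and 2.22 for the sums at 6 h, where the copies alone had 6.64, 8.71 and 9.08 and the parents 0.67, 1.75 and 1.66. How reads were divided between copy and parent was not tested.

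Genes that overlap an annotated small RNA gene (microRNA, snoRNA, scaRNA, snRNA or misc_RNA) on their own strand had a larger share of higher calls, a difference that was not tested. At 6 h 331 of 862 such genes were higher (38.4%) and 120 lower, against 18.1% higher among the 3356 genes that overlap none. At 72 h it was 308 of 845 (36.4%) against 18.4% of 3344. Their median log2 ratio was 0.60 and 0.50, against −0.39 and −0.54. Their share of protein-coding counts was 28.8%, 30.2% and 34.2% in footprints at 6 h against 18.9% to 19.3% in RNA. By the rule, the 5 highest among them were NCL, MATR3, a nuclear matrix protein, the read-through gene PPAN-P2RY11, the proton pump subunit ATP6V1C2 and the adaptor KLHL22. MATR3 has a pair of overlapping identifiers, and the footprints moved between them from library to library: the higher one had 52.9, 3847 and 4810 CPM at 6 h while the other had 3335, 494 and 0 CPM. ATP6V1C2 rested on 1 library at each time, with 391.8, 0 and 0 CPM in footprints at 6 h and 0, 484 and 0 CPM at 72 h. The footprint libraries were made with a small RNA kit, and the part of small RNAs in these counts was not tested.

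The 13 mitochondrial DNA-encoded proteins, subunits of the respiratory chain that mitochondrial ribosomes make, had, of the lists used here, the class median that lay farthest apart between the times. At 6 h, 3 of 12 tested genes were higher (MT-ND3, MT-ND5 and MT-ND6), 1 was lower (MT-ND4), and the median was 0.66. Of the 12, 2 (MT-ND3 and MT-ND6) passed the filter through footprints alone. With RNA of at least 50 CPM, 1 of 10 was higher, against 18.1% of all tested genes with that level. At 72 h all 13 were lower, 1 of them (MT-ATP8) listed at 0, with a median of −4.72. MT-CO1, a core subunit of complex IV, had 296, 1277 and 3012 CPM in footprints at 6 h and 107.2, 169 and 224 CPM at 72 h, while its RNA was 2084, 1704 and 1893 CPM at 6 h and 5577, 4589 and 6272 CPM at 72 h. Its log2 ratio was −0.41 ± 0.63 at 6 h and −5.13 ± 0.50 at 72 h. MT-CO3, of the same complex, went from −0.96 ± 0.69 to −7.65 ± 0.59, and MT-ND5, of complex I, from 3.62 ± 0.73 to −3.07 ± 0.50.

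The 6 h value rested on which library was read. The class took 0.125%, 0.589% and 1.49% of protein-coding footprint counts in replicates 1, 2 and 3 of 6 h, in the order in which the microRNA share of those libraries stood (4.67%, 45.1% and 60.8%), and 0.0586%, 0.0726% and 0.0969% at 72 h. In RNA it took 0.546%, 0.452% and 0.484% at 6 h and 2.24%, 2.16% and 1.82% at 72 h. At 6 h footprints and RNA overlapped, and at 72 h footprints were 27.3-fold lower. All 3 footprint libraries of 6 h lay above the 3 of 72 h. Without 6 h footprint replicate 3, the 6 h ratios of MT-ND1, MT-ND4L and MT-CYB fell from above to below 0, to −0.22, −0.31 and −0.11. Without 6 h footprint replicate 2, the 6 h calls on MT-ND3 (2.62), MT-ND4 (−0.90) and MT-ND6 (3.28) were lost. Whether the share of other RNAs in the libraries plays a part was not tested.

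**Figure D4:**
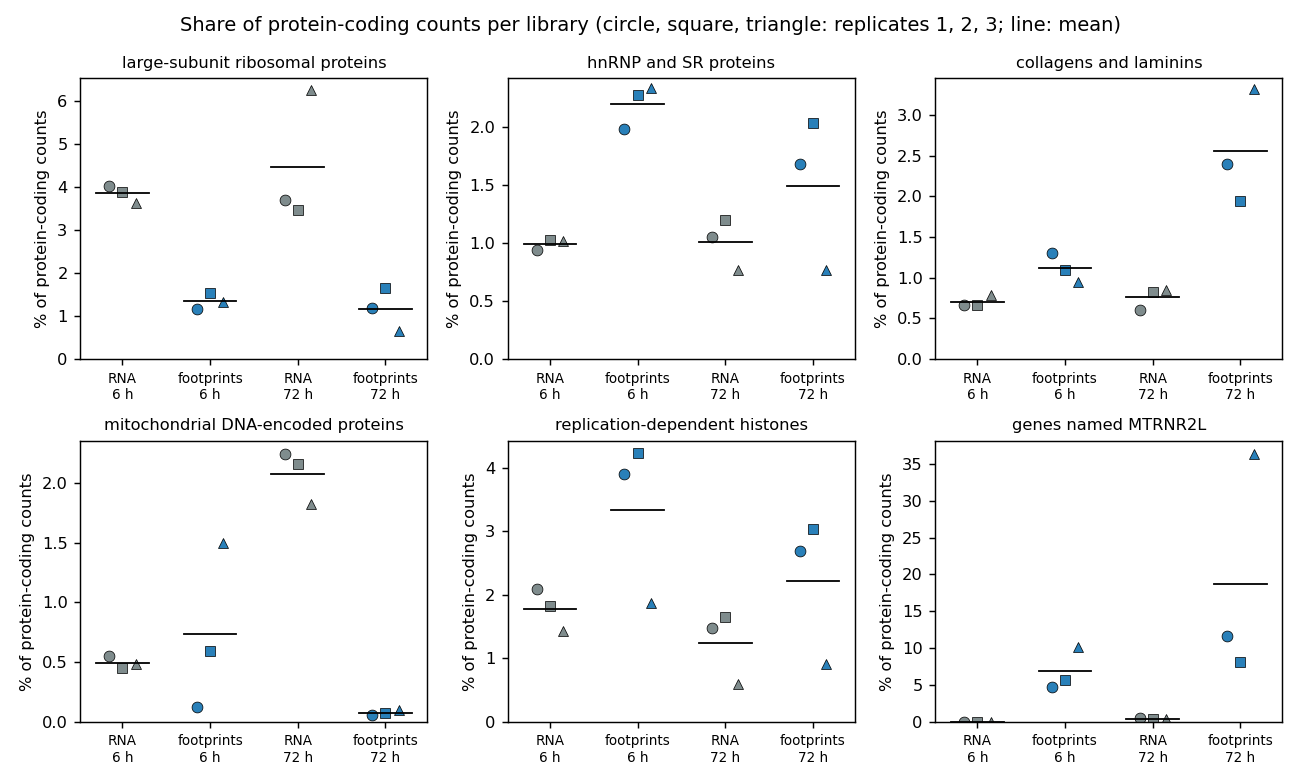
Percent of protein-coding counts (vertical axes, from 0) taken by 6 gene groups in each RNA and footprint library at 6 h and 72 h. Symbols stand for replicates 1, 2 and 3 and lines for their mean. Ribosomal proteins of the large subunit lie lower in footprints at both times, and mitochondrial DNA-encoded proteins lie near RNA at 6 h, from 0.125% to 1.49%, and below 0.1% at 72 h.

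The number of genes whose ratio differed between the times, by the assay-by-time interaction over the 12 libraries, depended on the tool and on single libraries. Of 4240 genes tested in edgeR, 12 had a higher ratio at 72 h (0.283%) and 47 a lower one (1.11%), with 841 genes (19.8%) at an unadjusted p under 0.05. Of the 47, 11 were mitochondrial DNA-encoded, 13 had footprints listed at 0 at 72 h and 23 were others. DESeq2 called 141 higher and 225 lower, and limma voom 1 and 21. The count of higher genes fell to 2, 2, 4 and 3 without RNA replicates 2, 3 and 1 of 6 h and RNA replicate 1 of 72 h, to 2 without footprint replicate 2 of 6 h or replicate 1 of 72 h, and rose to 42 without footprint replicate 1 of 6 h and to 28 without RNA replicate 2 of 72 h. The count of lower genes fell to between 16 and 31 without any of RNA replicates 1, 2 and 3 and footprint replicate 2 of 6 h, and RNA replicate 1 and footprint replicates 1 and 2 of 72 h, the lowest being 16 without footprint replicate 1 of 72 h. Time, table and any batch of libraries cannot be told apart.

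The genes with the largest higher differences included APOE, LAMA5, IRX2 and CD276. APOE, a lipid carrier, had 116, 68.1 and 83.7 CPM in footprints at 6 h against 156, 142 and 110.8 CPM in RNA, and 495, 677 and 410 CPM against 81.0, 135 and 58.9 CPM at 72 h, a difference of 3.10 in log2 ratio (adjusted p = 0.0126). LAMA5, a laminin chain, had 466, 255 and 293 CPM in footprints at 6 h and 949, 919 and 2162 CPM at 72 h, with a difference of 2.62. IRX2, a homeobox transcription factor, had 52.9, 51.1 and 0 CPM against 84.0, 78.3 and 83.8 CPM in RNA at 6 h and 124, 121 and 149 CPM against 22.7, 23.7 and 22.5 CPM at 72 h. CD276, an immune checkpoint ligand, moved the same way by 4.27, with 10.6, 0 and 0 CPM in footprints at 6 h and 99.0, 108.9 and 74.5 CPM at 72 h. The 5 largest lower differences, in RRM2, PSMC2, TAX1BP1, MOB1A and TWF1, all came with footprints listed at 0 at 72 h. Single libraries carried several of these calls. Of the 12 fits that each left out 1 library, the call was lost in 10 for CD276, 9 for LAMA5, 11 for RRM2 and 10 for MT-CYB, and in 1 for APOE, without footprint replicate 2 of 6 h (2.90). Without footprint replicate 1 of 72 h the calls on PSMC2, TAX1BP1, MOB1A, TWF1, MT-ND1, MT-ND2, MT-ND6, MT-CO1, MT-CO2 and MT-ATP6 were also lost, and without footprint replicate 2 of 6 h those on PSMC2, TAX1BP1, MT-ND6 and MT-ATP6. The calls on PSMC2 and MT-ATP6 were lost as well without footprint replicate 2 of 72 h.

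The ratio also varied with the length of the transcript's parts. Among genes with a footprint count, in 4 groups of near-equal size by coding length, the median log2 ratio at 6 h was −0.67 for up to 984 bases, −0.15 up to 1623, 0.34 up to 2757 and 0.30 above that. At 72 h it was −0.82, −0.20, 0.37 and 0.36. In groups by 3′ UTR length it ran the other way, from 0.23 for up to 500 bases through 0.20 and −0.03 to −0.52 for those of 2793 bases or more at 6 h, and from 0.44 through 0.41 and −0.16 to −0.93 at 72 h. RNA counts come from the whole transcript and footprints mainly from the coding region, and the part of this in the trend was not tested. Spearman's rho across genes was 0.21 and 0.25 for coding length, −0.17 and −0.28 for the 3′ UTR and 0.02 and −0.03 for the 5′ UTR, over 3954 and 3764 genes that share the same libraries. Genes with 5 or more ATG triplets upstream of the start codon had medians of 0.13 and −0.01, and those with 2 to 4 had −0.16 and −0.28.

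**Figure D5:**
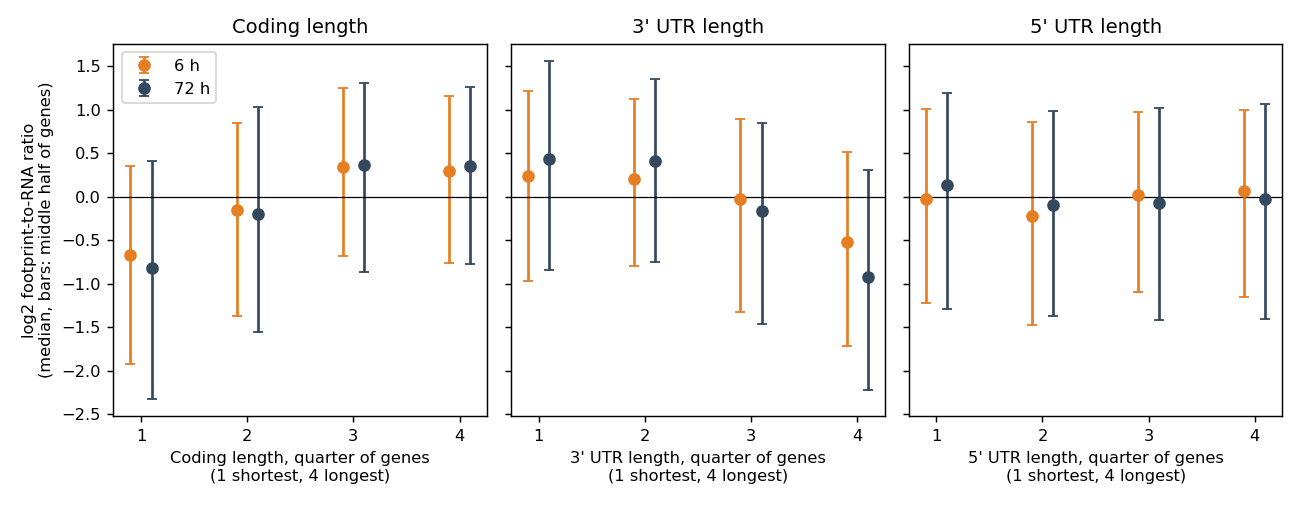
Median log2 footprint-to-RNA ratio (vertical axis) of genes with a footprint count, in 4 groups of near-equal size from shortest to longest (horizontal axis) by coding length, 3′ UTR length and 5′ UTR length (panels), at 6 h and 72 h. Bars span the middle 50% of genes, and medians at 72 h go from −0.82 to 0.36 with coding length and from 0.44 to −0.93 with 3′ UTR length.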

How the data were processed

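RNA and ribosome footprints of vehicle-treated WiT49 cells at 6 h and 72 h were analysed, 3 libraries of each. The tables deposited by the authors hold estimated counts per gene in whole numbers, made with HISAT2 and StringTie on hg38, per the submitters' processing notes. Tool versions are not given in the sources used here. Rounding changed no value. In the 6 h RNA the lowest counts pile up at multiples of 3. Gene types and lengths came from GENCODE 29, which matched 99.4% of identifiers. The 12 actinomycin D columns of these tables and the 2-week tables were not used. Counts were scaled to the protein-coding total of each library (CPM). Within each time, footprints were compared with RNA by quasi-likelihood tests (edgeR 4.0.16, run in R 4.3.3) with Benjamini-Hochberg adjustment over all genes tested, at 0.05, after a filter at a mean of 50 CPM over both assays. An assay-by-time term over the 12 libraries tested the difference between times. The fits were tested on simulated data. DESeq2 1.42.0, limma 3.58.1 voom, TMM scaling, other totals, other filters, 1 fit over all libraries, a replicate block and leaving out each library were the alternatives. No library pair agreed within sampling noise. Starts were read from RefSeq GRCh38.p14.

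Named genes were the 10 highest and 10 lowest called the same way at both times that overlap no small RNA gene, the 5 highest that overlap one, the 5 largest differences between times in each direction, the ends of each of 32 gene lists, and all mitochondrial DNA-encoded genes. Some items that this rule names are not reported here. Members and lists were chosen with earlier results of these data known.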

Additional observations from a re-analysis of the deposited data

Results flagged for a closer look

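The ratio of 20 named genes differed between 6 h and 72 h by the assay-by-time term of edgeR. The log2 ratio was higher at 72 h by 4.27 for CD276, 3.36 for IRX2, 3.10 for APOE and 2.62 for LAMA5. It was lower at 72 h for RRM2 (adjusted p = 0.0382), PSMC2 (adjusted p = 0.0191), TAX1BP1 (adjusted p = 0.0191), MOB1A (adjusted p = 0.0191) and TWF1 (adjusted p = 0.0137), whose footprints were all listed at 0 at 72 h. Of the mitochondrial DNA-encoded genes, the difference at 72 h was −5.95 for MT-ND1, −5.82 for MT-ND2, −6.12 for MT-ND3, −3.55 for MT-ND4, −6.77 for MT-ND5, −9.82 for MT-ND6, −5.67 for MT-CYB, −4.77 for MT-CO1, −5.89 for MT-CO2, −6.77 for MT-CO3 and −5.30 for MT-ATP6. Without footprint replicate 1 of 72 h, the calls on PSMC2, TAX1BP1, MOB1A, TWF1, MT-ND1, MT-ND2, MT-ND6, MT-CO1, MT-CO2 and MT-ATP6 were lost, and those on CD276, LAMA5, RRM2 and MT-CYB were lost in 9 or more of the 12 fits that left out 1 library. No group had the 4 samples that a search for single outlying libraries needs.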

How the results depend on the processing

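At 6 h the 938 higher calls became 595 with limma voom and 590 with a replicate block, and the 1181 lower calls became 535 with a filter at 100 CPM, 2927 with no filter and 751 with the block. At 72 h 923 higher became 597 and 1411 lower became 649 at 100 CPM, and lower became 3311 with no filter. Leaving out 1 library gave 749 to 976 higher and 987 to 1196 lower genes at 6 h and 624 to 971 and 1168 to 1414 at 72 h. The difference between times moved most. Its 12 higher genes became 24 with totals without MTRNR2L genes, 3 with no filter, 141 with DESeq2, 1 with voom, 1 with the block and 2 to 42 without 1 library. Its 47 lower genes became 27 with no filter, 225 with DESeq2, 21 with voom, 5 with the block and 16 to 65 without 1 library. Voom and the MTRNR2L totals were chosen after seeing the data. Same-numbered RNA and footprint libraries were hardly correlated (0.0508 to 0.104), so the numbers were not taken to pair them, although every RNA library correlated best with its own number. Named genes that changed sign were RPL3 at 6 h with TMM (−0.046) and MCL1 at 6 h with TMM (−0.12), voom (−0.15), the block (−0.039) and without 1 library (−0.24 to 0.50), and at 72 h without 1 library (−0.16 to 0.36). At 6 h, MT-ND4L (−0.17) and MT-CYB (−0.92) did so with voom. Without 1 library of 6 h the ranges were −0.22 to 1.29 for MT-ND1, −0.31 to 1.59 for MT-ND4L and −0.11 to 1.63 for MT-CYB, lowest without footprint replicate 3. They were −1.32 to 0.12 for MT-CO1, highest without footprint replicate 1, and −0.51 to 1.40 for MT-ATP6, lowest without footprint replicate 2. Of the other values of named genes under alternatives, 3241 kept direction and side of the threshold, 174 lost the call and 26 gained it. The cause was not tested. Footprint depth limits every ratio below the floor of 3 counts.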
